A study of Mus musculus with 6 samples.

Results

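The comparison described here sets the 3 arrays titled replicate 2 against the 3 arrays titled replicate 1, within each of 3 transfection groups of mouse embryonic stem cells. The members were chosen by the replicate number in the titles, so all 6 arrays of the series take part, as 3 pairs. Every group was the E14 line, an established, feeder-independent mouse embryonic stem cell line grown on adherent plates. The control pair received pooled non-specific siRNAs, and the other pairs received siRNA 1 or siRNA 2 against p/CIP, the nuclear receptor coactivator encoded by Ncoa3. All groups were thus transfected, and no untransfected cells were included. The labels do not say whether a replicate number marks a separate culture, passage, day or extraction, and the p-values therefore reflect no more than the spread among these arrays, which may be technical. Knockdown was not the question asked of the pairs, and what separated replicate 2 from replicate 1 at the bench is not given in the sources used here.

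Extraembryonic endoderm is the lineage that the early embryo sets aside from the epiblast, from which embryonic stem cells are derived. Its first form, primitive endoderm, depends on the transcription factors GATA6 and GATA4, and forced expression of either in mouse embryonic stem cells is known to turn them towards this lineage. It later gives parietal endoderm, which lays down a thick basement membrane of laminin and type IV collagen, and visceral endoderm, which takes up nutrients through the receptors cubilin and megalin and the adaptor DAB2. Cells carrying such markers are well known to appear spontaneously in embryonic stem cell cultures.

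Each array gave a log2 level for 35556 probe sets, of which the brightest probe set with a single gene symbol was kept for each of 19938 genes. A difference of 1 on this scale is a doubling. Levels ran from 2.69 to 14.6, array medians from 7.77 to 7.84, and correlations between arrays across genes from 0.991 to 0.998. Replicate 2 of siRNA 1 stood apart, with an interquartile range of 3.13 against 3.33 to 3.45 on the other arrays. The number of arrays limits the precision, and with 3 pairs an exact permutation test of 1 gene could not give a two-sided p below 0.25, so the tests are limma's across all genes. In these bulk samples, a change in the number of cells of a type and a change in RNA per cell cannot be told apart. The arrays carried the defining genes of embryonic stem cells at high levels in both replicates: Pou5f1 ran from 12.68 to 12.91 and Nanog from 12.55 to 13.05.

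The siRNA target separated the groups by siRNA in both replicates. On the replicate 1 arrays Ncoa3 was at 12.33 for control, 10.71 for siRNA 1 and 10.71 for siRNA 2, and on the replicate 2 arrays at 12.28, 10.93 and 10.92. Its replicate 2 minus replicate 1 difference was 0.13 (limma adjusted p = 0.32), with -0.05, 0.22 and 0.21 in the control, siRNA 1 and siRNA 2 pairs. Against the control, both siRNAs together gave -1.49 (limma adjusted p = 0.0287).

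All 6 marker genes of extraembryonic endoderm were higher on every replicate 2 array than on every replicate 1 array. The list is Gata6, Gata4, Dab2, Lama1, Srgn and Cubn. It was chosen with earlier results of these data known, so its counts are described and carry no weight as evidence. Its median difference was 0.68, against 0.03 over all genes. Such separation, with all replicate 2 arrays above all replicate 1 arrays, was met by 13.2% of all genes. Of the 6 markers, 1 passed limma's test at an adjusted p of 0.05, which called 0.0251% of all genes in this direction, that is 5 of 19938. All 6 passed when the prior variance was allowed to follow brightness (the trend option of limma), which called 3.68% of genes as higher and 4.86% as lower. The median level of the 6 markers was 9.23, 9.27 and 9.18 on the replicate 1 arrays of control, siRNA 1 and siRNA 2, and 9.90, 10.26 and 9.87 on the replicate 2 arrays.

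The transcription factors came first. Gata6 read 9.34, 9.42 and 9.39 on the replicate 1 arrays (control, siRNA 1, siRNA 2, the order used throughout) and 9.89, 10.48 and 9.80 on the replicate 2 arrays. The replicate 2 arrays all lay above the replicate 1 arrays, and replicate 2 of siRNA 1 was the highest. The mean difference was 0.68, or 1.6-fold (standard error 0.125, 95% interval 0.37 to 0.99, limma adjusted p = 0.108, with the trend 0.00451). Gata4, its partner in the same lineage, read 8.50, 8.67 and 8.59 in replicate 1 and 8.95, 9.43 and 8.91 in replicate 2. The order of the pairs was that of Gata6, with the siRNA 1 pair again furthest apart. Its difference was 0.51, or 1.42-fold (standard error 0.0915, limma adjusted p = 0.108, with the trend 0.00617).

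Among genes of endocytosis, Dab2, the clathrin adaptor of megalin and cubilin, read 9.29, 9.35 and 9.56 in replicate 1 and 9.94, 10.16 and 10.16 in replicate 2. The groups did not overlap, and the difference was 0.69, or 1.61-fold (standard error 0.0618, 95% interval 0.53 to 0.84, limma adjusted p = 0.0858, with the trend 1.8e-04). A second probe set of Dab2, near the bottom of the scale at 4.54, differed by 0.05. Cubn, the receptor cubilin, read 7.41, 7.74 and 7.67 in replicate 1 and 8.30, 8.32 and 8.21 in replicate 2. Here the control pair was furthest apart, and the difference was 0.67 (standard error 0.0825, limma adjusted p = 0.0955, with the trend 0.00234). Lama1, the laminin alpha chain of embryonic basement membranes, read 9.16, 9.18 and 8.98 in replicate 1 and 9.91, 10.36 and 9.94 in replicate 2. Its difference was 0.96, or 1.94-fold (standard error 0.0887, limma adjusted p = 0.0858, with the trend 1.79e-04).

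Srgn was the marker that passed the test. It encodes serglycin, the core protein of secretory-granule proteoglycans, and it read 11.05, 11.15 and 10.88 in replicate 1 and 11.89, 12.01 and 11.90 in replicate 2. The 3 pairs differed by 0.84, 0.87 and 1.01. The gene rose by 0.91, or 1.88-fold (standard error 0.059, 95% interval 0.76 to 1.05, limma adjusted p = 0.0368).

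**Figure D1:**
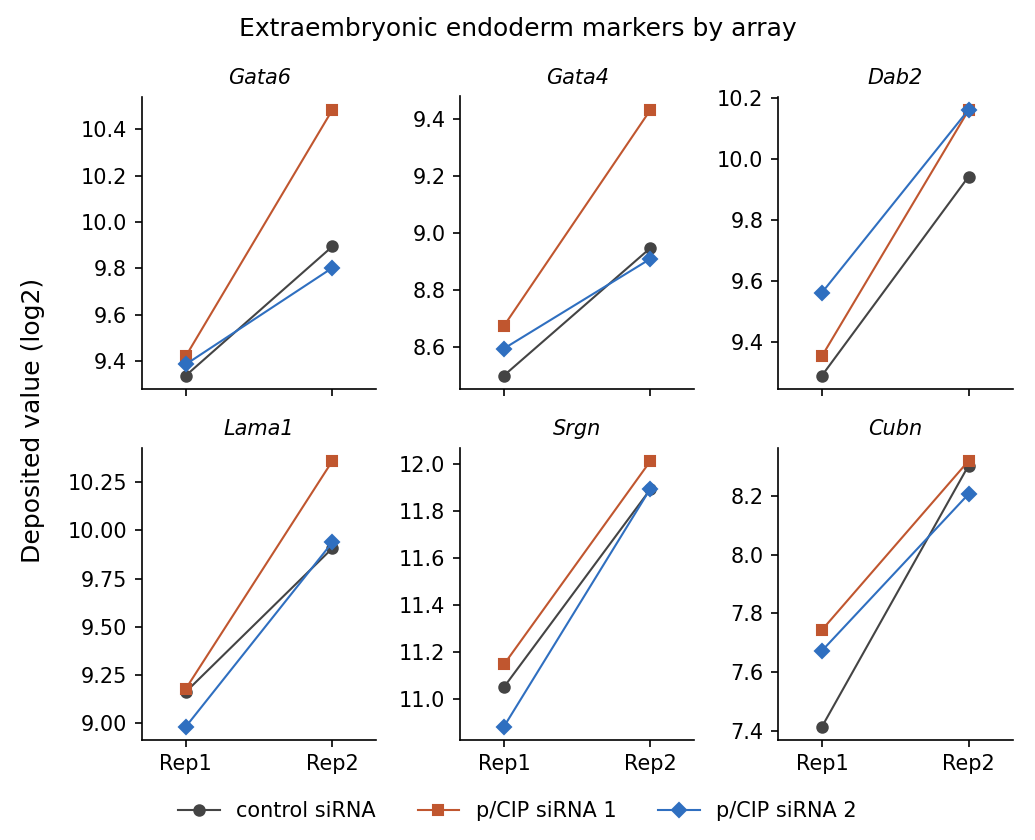
Log2 level of the 6 extraembryonic endoderm markers on each of the 6 arrays, with a line joining replicate 1 to replicate 2 of each transfection group (control, siRNA 1, siRNA 2). Every line runs upwards, and for Gata6 the line of siRNA 1 is the steepest, ending at 10.48.

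The 6 wider lists of extraembryonic endoderm genes, chosen with earlier results of these data known and so only described, held 71 measured genes. Of these, 63 had a difference above 0 and 47 (66.2%) were higher in all 3 pairs, which 28.5% of all genes were. In 34 the replicate 2 arrays lay above all replicate 1 arrays, and in 0 below them, against 13.2% and 8.57% of all genes. Srgn alone passed the test, while 31 passed as higher and 0 as lower with the trend. The trend called 3.68% of all genes as higher and 4.86% as lower. The median difference of the 71 genes was 0.21.

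The primitive endoderm transcription factors had a median difference of 0.30 over 8 measured genes, all above 0. Next to Gata6 and Gata4, Foxq1, a forkhead factor, read 7.99, 7.93 and 7.86 in replicate 1 and 8.47, 8.68 and 8.37 in replicate 2, a difference of 0.58 (limma adjusted p = 0.0955). Sox17, a SOX factor of all endoderm, read 6.70, 6.79 and 6.69 in replicate 1 and 6.94, 7.32 and 7.07 in replicate 2, a difference of 0.38 (limma adjusted p = 0.108). The arrays of both genes did not overlap between replicates. Closer to 0 lay Foxa2 with 0.22, Sox7 with 0.18, Hnf4a with 0.10 and Sall4, a factor that pluripotent cells also express, with 0.05. Foxa2 was lower in replicate 2 of the siRNA 2 pair (-0.06) and Hnf4a in that of the control pair (-0.05). By pair, the median of the 8 factors was 0.31 for control, 0.53 for siRNA 1 and 0.21 for siRNA 2.

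The endocytic receptors, adaptors and lysosomal proteases had a median difference of 0.35 over 9 genes, of which 8 were higher in all 3 pairs. Lrp2, the receptor megalin, read 9.01, 9.32 and 9.81 in replicate 1 and 9.73, 9.96 and 10.36 in replicate 2. Its levels overlapped between replicates and also differed between groups, while every pair differed in the same direction, by 0.64 on average (limma adjusted p = 0.0858). Ctsh, the lysosomal protease cathepsin H, read 6.40, 6.75 and 6.51 in replicate 1 and 7.26, 7.35 and 7.55 in replicate 2, a difference of 0.83 (limma adjusted p = 0.0955). Lgmn, the lysosomal protease legumain, differed by 0.35 without overlap (limma adjusted p = 0.108). The pair medians of the list lay close together, at 0.39, 0.40 and 0.43.

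Basement membrane genes had a median difference of 0.24 over 15 genes, with 14 above 0, 12 higher in all 3 pairs and 9 without overlap. Over all genes 28.5% were higher in all 3 pairs and 13.2% were higher without overlap. Col4a1, an alpha chain of type IV collagen, read 8.44, 8.66 and 8.46 in replicate 1 and 8.92, 9.10 and 8.93 in replicate 2. Its difference was 0.46, and that of Col4a2, its partner chain encoded beside it, was 0.49 (limma adjusted p = 0.0955 for both). Lamb1, the laminin beta chain that joins Lama1 in the laminin trimer, read 9.51, 10.02 and 9.89 in replicate 1 and 9.98, 10.41 and 10.29 in replicate 2. Its pairs differed alike, by 0.42 on average, although the control arrays lay below the others (limma adjusted p = 0.0955). Serpinh1, the collagen chaperone, differed by 0.40, the laminin chain Lamc1 by 0.15, fibronectin (Fn1) by 0.13 and nidogen (Nid1) by 0.03, with -0.06 for Nid1 when array medians were aligned. The trimer's chains thus did not differ to the same degree.

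Parietal endoderm genes were all above 0, with a median of 0.33 over 12 genes. They include Srgn. Cryab, a small heat shock chaperone, read 10.19, 10.24 and 10.09 in replicate 1 and 10.69, 10.93 and 10.84 in replicate 2, without overlap and with a difference of 0.64 (limma adjusted p = 0.0955). Krt8, the keratin of simple epithelia, read 12.39, 12.43 and 12.51 in replicate 1 and 12.69, 12.94 and 12.99 in replicate 2, a difference of 0.43 (limma adjusted p = 0.106). Its filament partner Krt18 differed by 0.34, Krt19 by 0.33 and Krt7 by 0.36. Stra6, the cellular retinol receptor, differed by 0.41 and Pth1r, the parathyroid hormone receptor of parietal cells, by 0.32. The follistatin gene Fst had 0.04 (-0.05 with array medians aligned) and thrombomodulin (Thbd) 0.14.

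Visceral endoderm genes had a median of 0.12 over 13 measured genes. Of these, 11 had a difference above 0 and 4 (30.8%) were higher in all 3 pairs, close to the 28.5% of all genes. The median ran from 0.05 without the siRNA 1 pair to 0.17 without the control pair, and it was 0.04 after quantile normalization and 0.16 with the number in each array's description (the array code) as a covariate. Ihh, the Indian hedgehog ligand, differed by 0.27 and transthyretin (Ttr) by 0.18. The 2 genes below 0 encode plasma proteins of yolk sac and liver, Afp with -0.10 and transferrin (Trf) with -0.14. Among other plasma protein genes, fibrinogen Fgb had 0.14, and apolipoprotein Apoa1 had a mean of 0.17, with -0.14, 0.41 and 0.23 in the 3 pairs. The 14 other primitive endoderm genes had a median of 0.15, with 10 above 0, 4 below 0 and 7 (50%) higher in all 3 pairs. The highest, Pdgfra, the growth factor receptor that marks the lineage early, read 6.95, 6.93 and 7.05 in replicate 1 and 7.23, 7.56 and 7.47 in replicate 2. The difference was 0.45 without overlap (limma adjusted p = 0.108). Podxl, the sialomucin podocalyxin, had 0.29, and the lowest value of this list was -0.09.

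Markers of anterior and definitive endoderm, the embryo's own gut lineage, did not as a list move with the extraembryonic lists. Of 13 genes, 5 had a difference above 0 and 7 were lower in all 3 pairs, which 21.4% of all genes were; the median was -0.11. Trh, the thyrotropin-releasing hormone gene, read 11.54, 11.44 and 11.86 in replicate 1 and 11.32, 10.95 and 11.33 in replicate 2, a difference of -0.41 (limma adjusted p = 0.108). This was the list's member of smallest p. Sox17, which is also on the primitive endoderm list above, had the highest difference of the 13, at 0.38 without overlap. None of the 13 passed the test, and with the trend 2 passed as higher and 2 as lower, against 3.68% and 4.86% of all genes.

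Pluripotency genes lay lower in replicate 2 by small amounts. Of 34 measured core and naive pluripotency genes, 29 had a difference below 0. Lower in all 3 pairs were 22 (64.7%), against 21.4% of all genes and 42.1% in the brightest of 10 bins of mean level. In 3 the replicate 2 arrays all lay below the replicate 1 arrays, which 8.57% of genes met. The median was -0.10, 0 passed the test, and 16 passed as lower and 0 as higher with the trend, against 4.86% and 3.68% of all genes. These genes are bright, with a median level of 11.12, and bright genes as a whole were slightly lower in replicate 2 (values further on).

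Nanog, the homeodomain factor of the naive state, read 13.05, 12.70 and 12.71 in replicate 1 and 12.89, 12.55 and 12.60 in replicate 2. All 3 pairs differed in the same direction, by -0.14 on average (limma adjusted p = 0.183, with the trend 0.0198), and the groups overlapped. Pou5f1, the POU factor OCT4, had a difference of -0.11 (limma adjusted p = 0.236), Sox2 of -0.14 (0.179), Esrrb, an orphan nuclear receptor, of -0.16 (0.153) and Klf4 of -0.22 (0.118). Larger differences of the same sign were read for Tcl1, a coactivator of the kinase AKT, at -0.35, for the DNA demethylase gene Tet2 at -0.34 and for the adhesion molecule Pecam1 at -0.30 (limma adjusted p = 0.108 for Pecam1). Prdm14, a repressor of differentiation genes, had -0.40.

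Genes of other lineages that a culture could hold were checked in the same way. The 19 measured mesoderm genes had a median difference of 0.07 with 0 passing under the trend, and the 17 neural genes had 0.04 with 1 passing. The 16 trophoblast genes had 0.13 with 2 passing (0.21 without the control pair), and the 15 fibroblast feeder genes had 0.19 with 3 passing. Over all genes 3.68% passed as higher with the trend. Higher in all 3 pairs were 36.8% of the mesoderm, 23.5% of the neural, 50% of the trophoblast and 60% of the feeder genes. The share was 28.5% over all genes and 66.2% over the extraembryonic endoderm lists. It also varied with mean level. In the bin of mean level that holds the list's median level, it was 39.4% for the mesoderm, neural and feeder lists. For the trophoblast list it was 20.6%. The feeder list overlaps with contractile genes. Its collagen members were near 0.2, with 0.22 for Col1a1 and 0.20 for Col3a1, and Thy1, a surface marker of fibroblasts, had 0.21. The median level of the feeder list was 7.63 to 7.74 on the replicate 1 arrays and 7.79 to 8.03 on the replicate 2 arrays. No detection calls were used, so a low level here cannot be told from background, and the part of these cell types in the endoderm values was not tested.

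**Figure D2:**
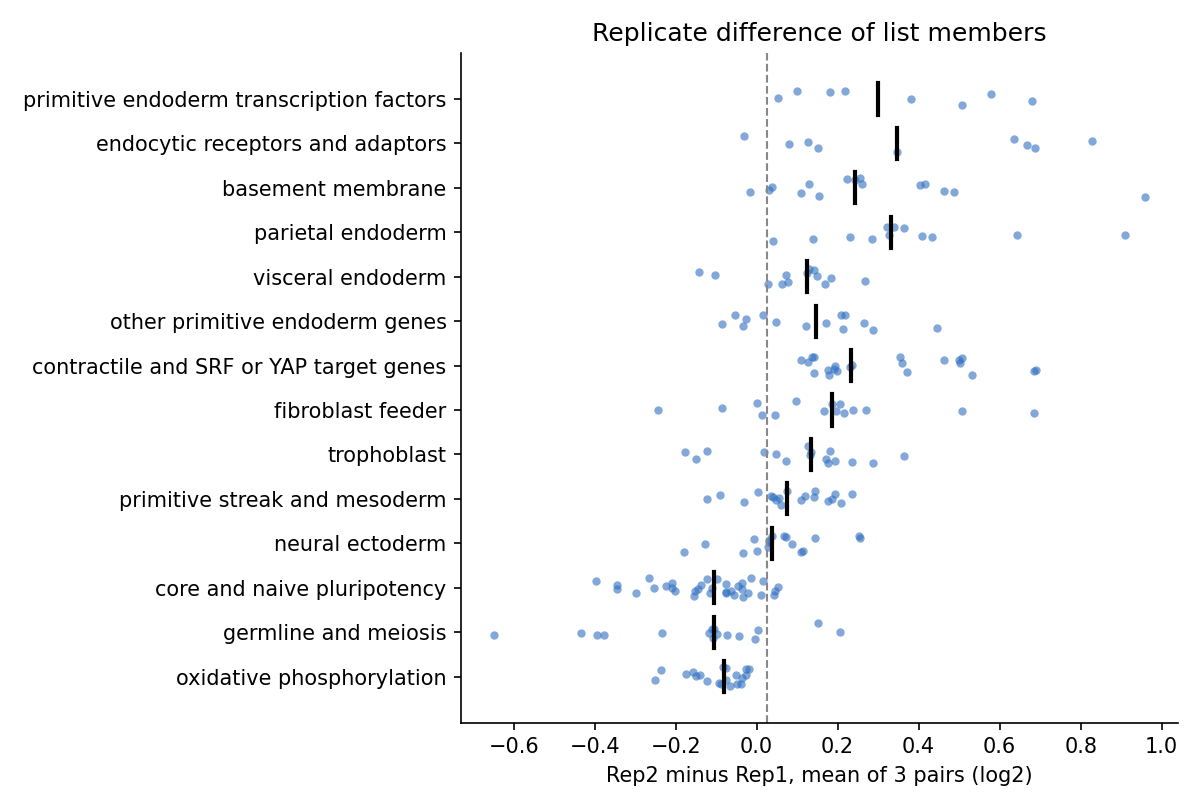
Replicate 2 minus replicate 1 difference (log2, mean of the 3 pairs) of each measured member of 14 gene lists; a point is a gene (spread vertically only for legibility), a black bar is the list's median, and the dashed line is the median of all genes at 0.03. The endocytic, basement membrane and parietal lists reach furthest to the right, to 0.83, 0.96 and 0.91, and the pluripotency, germline and oxidative phosphorylation lists have their medians to the left of 0.

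Across the whole table, 5 genes passed the test, all higher in replicate 2, and 0 were lower. Without adjustment, 3087 genes (15.5%) had p under 0.05 as higher and 1795 (9%) as lower, against 997 that chance alone gives for both directions together. At an adjusted p of 0.1 the counts were 65 higher (0.326%) and 23 lower (0.115%). Srgn is described above, and the other 4 were Glipr1, Slco2a1, Nxf7 and Hs3st1. The count of 5 rests on all pairs and on the settings: it was 1 without the control pair (Glipr1 alone), 10 without the siRNA 1 pair, including all 5, and 0 without the siRNA 2 pair. It was 0 when all probe sets, named or not, were tested together, and 1 gene outside the 5 passed without moderation of the variances. Under the other scalings, quantile normalization called 22 genes higher and 6 lower and cyclic loess 49 higher and 23 lower, in each case including the 5, while with the trend the split was 734 to 968.

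Glipr1, a member of the secreted CAP protein superfamily, showed the largest rise of the 5. It read 8.34, 7.84 and 7.97 in replicate 1 and 9.67, 9.66 and 9.76 in replicate 2, so that the replicate 2 arrays came to nearly the same level. The rise was 1.65, or 3.14-fold (standard error 0.104, 95% interval 1.39 to 1.91, limma adjusted p = 0.0368). Slco2a1, a prostaglandin transporter, read 9.50, 9.44 and 9.32 in replicate 1 and 10.37, 10.58 and 10.46 in replicate 2, and rose by 1.05, or 2.07-fold (standard error 0.073, limma adjusted p = 0.0406). Neither gene was on a list of endoderm genes used here.

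Nxf7 and Hs3st1 also passed, but were too dim for the naming rule and were chosen after their values were seen. Nxf7, a member of the nuclear RNA export factor family on the X chromosome, read 6.50, 6.54 and 6.31 in replicate 1 and 7.51, 7.54 and 7.43 in replicate 2, a 2.06-fold rise (standard error 0.0551, limma adjusted p = 0.033). Its pairs differed by 1.02, 1.00 and 1.12. Hs3st1, an enzyme that adds sulfate to heparan sulfate chains, read 7.02, 7.13 and 6.89 in replicate 1 and 7.68, 7.82 and 7.62 in replicate 2, and rose by 0.69 (limma adjusted p = 0.0475).

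Promoter windows from RefSeq (build GRCm38.p6, 250 bases before to 50 after a gene's start) are printed for Srgn, Slco2a1, Nxf7 and Hs3st1, which rose, and for the marker Dab2, so that they can be read for the hexamers that GATA factors are known to bind. The letters searched were AGATAA and the variant that ends in G instead (AGATAG), together with the same hexamers beginning with T in place of the first A (TGATAA as well as TGATAG), each on both strands and with overlapping matches counted, and matches stand in capitals. For genes with several starts in the table the first was taken. The table matched 4 of the 5 genes that passed.
Srgn, chr10:62527396-62527695, minus strand: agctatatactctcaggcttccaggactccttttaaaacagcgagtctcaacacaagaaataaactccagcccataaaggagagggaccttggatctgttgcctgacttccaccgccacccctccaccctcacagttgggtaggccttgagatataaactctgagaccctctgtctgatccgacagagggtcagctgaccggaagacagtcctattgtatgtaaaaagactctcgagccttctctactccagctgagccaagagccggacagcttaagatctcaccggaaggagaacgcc
Slco2a1, chr9:103008237-103008536, plus strand: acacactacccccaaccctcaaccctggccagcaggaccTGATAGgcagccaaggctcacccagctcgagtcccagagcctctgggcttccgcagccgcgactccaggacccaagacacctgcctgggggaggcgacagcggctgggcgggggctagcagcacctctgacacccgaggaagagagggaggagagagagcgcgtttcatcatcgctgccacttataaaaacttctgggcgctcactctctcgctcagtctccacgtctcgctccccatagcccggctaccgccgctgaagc
Nxf7, chrX:135598732-135599031, minus strand: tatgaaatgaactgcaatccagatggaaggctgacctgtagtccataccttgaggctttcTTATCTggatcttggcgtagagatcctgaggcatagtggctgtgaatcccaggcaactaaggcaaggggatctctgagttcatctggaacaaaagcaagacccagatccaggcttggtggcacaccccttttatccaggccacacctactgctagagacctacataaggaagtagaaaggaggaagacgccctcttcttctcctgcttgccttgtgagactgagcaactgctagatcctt
Hs3st1, chr5:39644582-39644881, minus strand: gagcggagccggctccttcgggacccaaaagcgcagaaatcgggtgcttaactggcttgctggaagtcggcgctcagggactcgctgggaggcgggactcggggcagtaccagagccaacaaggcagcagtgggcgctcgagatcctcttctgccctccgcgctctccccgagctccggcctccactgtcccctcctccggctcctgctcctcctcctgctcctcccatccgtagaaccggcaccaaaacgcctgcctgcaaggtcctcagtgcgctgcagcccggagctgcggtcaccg
Dab2, chr15:6299539-6299838, plus strand: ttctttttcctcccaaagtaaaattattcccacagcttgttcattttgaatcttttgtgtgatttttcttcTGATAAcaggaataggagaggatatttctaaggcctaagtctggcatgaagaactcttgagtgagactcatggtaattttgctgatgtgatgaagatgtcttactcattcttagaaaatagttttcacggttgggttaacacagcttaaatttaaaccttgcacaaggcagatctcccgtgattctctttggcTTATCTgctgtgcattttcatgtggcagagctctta

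Counted in bases from the gene's start, Dab2 held 2 matches, beginning at -179 and 14, Slco2a1 held 1 at -211 and Nxf7 held 1 at -190. Srgn and Hs3st1 held 0, so 2 of the 4 genes that passed and had a window held a match. Of the 6 markers, 3 had a window, and Dab2 was the 1 marker with a match (33.3%). A match was present in 30.2% of the promoter windows of all 27025 genes in the table and in 7 of the 47 extraembryonic endoderm genes with a window (14.9%). Such matches are short and frequent, and they describe letters only.

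Further genes of small p were also higher in replicate 2 in every pair without passing the test. Rdh10, the retinol dehydrogenase of retinoic acid synthesis, read 9.40, 9.16 and 9.42 in replicate 1 and 9.86, 9.74 and 10.06 in replicate 2, a difference of 0.56 (limma adjusted p = 0.0955). Vnn1, a pantetheinase, was chosen after its values were seen, as 1 of the most different genes of the table. It read 6.81, 6.42 and 6.78 in replicate 1 and 7.71, 7.58 and 7.60 in replicate 2, a difference of 0.96 (limma adjusted p = 0.0623).

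Contractile genes formed another group that was higher in replicate 2. This list of actin cytoskeleton genes and known targets of the factors SRF and YAP was drawn up after the values were seen, so its counts carry no weight as evidence of direction. All 22 members had a difference above 0, 21 in all 3 pairs, with a median of 0.23; 0 passed the test and 18 passed as higher with the trend. Over all genes 11462 of 19938 were above 0, 28.5% were higher in all 3 pairs and 3.68% passed as higher with the trend. Acta2, smooth muscle actin, read 11.75, 10.23 and 11.92 in replicate 1 and 12.16, 11.25 and 12.54 in replicate 2. The siRNA 1 arrays lay below the other groups in both replicates, and the replicates overlapped; the paired difference was 0.69 (limma adjusted p = 0.108). Tagln, the actin-binding protein transgelin, showed the same order of groups and a difference of 0.51 (limma adjusted p = 0.106).

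Tgfb1i1, a focal adhesion adaptor, read 9.41, 9.06 and 9.32 in replicate 1 and 9.96, 9.64 and 10.27 in replicate 2, a difference of 0.69 (limma adjusted p = 0.0955). Myl9, a myosin light chain, had 0.50 and Ccn1, a secreted matricellular protein and familiar YAP target, had 0.46. Over both siRNAs against control the list's median was -0.05, and 0.23 between the replicates. These medians were not tested against each other. The pooled value joins siRNA groups that lay on either side of control. For control, siRNA 1 and siRNA 2, the list's median level was 11.06, 10.64 and 11.18 in replicate 1. In replicate 2 it was 11.41, 11.17 and 11.70.

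Several genes of the Dlk1-Dio3 region on chromosome 12 were higher in replicate 2. The region is imprinted, and its maternal chromosome expresses the long noncoding RNA Meg3 and a large cluster of microRNA genes, a pattern known to vary between embryonic and induced pluripotent stem cell lines. It was singled out after its values were seen. Meg3 read 10.22, 10.47 and 10.41 in replicate 1 and 10.81, 10.76 and 10.75 in replicate 2, without overlap, and the control pair was furthest apart. The difference was 0.40 (limma adjusted p = 0.108). The protein-coding Rtl1 had 0.24, Dlk1 had -0.11 and Dio3 had -0.02, so these genes, which are known to be expressed from the paternal chromosome, did not share a direction. Rian, another maternal noncoding RNA, had 0.13, -0.22 and 0.67 in the 3 pairs.

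Of 61 microRNA genes in the region, 40 were measured; 39 had a difference above 0, 23 (57.5%) were higher in all 3 pairs and 11 did not overlap, with a median of 0.20. None passed the test and 12 passed as higher with the trend. Over all genes 28.5% were higher in all 3 pairs, 13.2% were higher without overlap and 3.68% passed as higher with the trend. The 260 microRNA genes elsewhere in the genome gave a median of 0.14, with 131 (50.4%) higher in all 3 pairs. Of these 260, 75 were higher without overlap and 31 passed as higher with the trend. The direction was thus also that of most microRNA genes outside the region. These are dim, with median levels of 6.56 in the region and 5.75 elsewhere. After quantile normalization the medians were 0.14 in the region and 0.08 elsewhere. Mir679 read 7.95, 8.34 and 7.99 in replicate 1 and 8.47, 9.00 and 8.61 in replicate 2, a difference of 0.60 (limma adjusted p = 0.0858). Mir127 read 7.05, 7.38 and 7.10 in replicate 1 and 7.66, 7.90 and 7.87 in replicate 2, a difference of 0.63 (limma adjusted p = 0.0955). Neither overlapped between replicates.

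The mature sequences of the 6 microRNA genes of smallest p in the region are shown so that their seeds (bases 2 to 8, in capitals) can be compared; they are RefSeq's, on the plus strand of chromosome 12 in GRCm38.p6. The probe sets measure transcripts of the gene, and not the mature arms. The differences of the genes were 0.63 for Mir127, 0.56 for Mir380, 0.53 for Mir323, 0.60 for Mir679, 0.47 for Mir667 and 0.36 for Mir134.
mmu-miR-127-5p: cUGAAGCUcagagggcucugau
mmu-miR-127-3p: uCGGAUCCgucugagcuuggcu
mmu-miR-380-5p: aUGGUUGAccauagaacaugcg
mmu-miR-380-3p: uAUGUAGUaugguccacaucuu
mmu-miR-323-5p: aGGUGGUCcguggcgcguucgc
mmu-miR-323-3p: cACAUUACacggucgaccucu
mmu-miR-679-5p: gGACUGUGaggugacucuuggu
mmu-miR-679-3p: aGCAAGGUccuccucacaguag
mmu-miR-667-5p: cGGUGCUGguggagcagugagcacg
mmu-miR-667-3p: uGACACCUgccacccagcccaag
mmu-miR-134-5p: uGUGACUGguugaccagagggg
mmu-miR-134-3p: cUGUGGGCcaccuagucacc

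No seed was shared among these 12 arms, so these 6 genes do not belong to a single seed family.

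**Figure D3:**
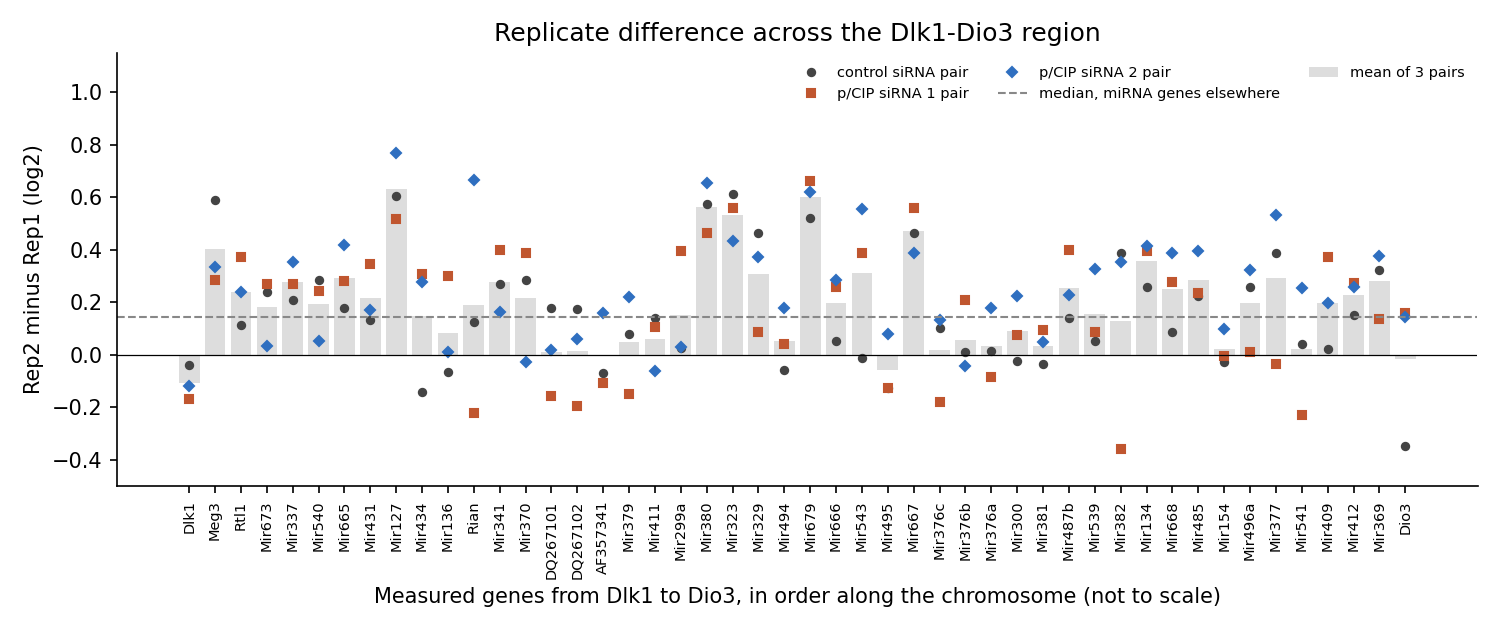
Replicate 2 minus replicate 1 difference (log2) of the 48 measured genes from Dlk1 to Dio3, in their order along the chromosome and not to scale; symbols are the 3 pairs, grey bars their mean, and the dashed line the median of microRNA genes elsewhere, 0.14. The bars of Mir127, Mir380, Mir323, Mir679 and Mir667 stand highest, and those of Dlk1 and Dio3 at the ends lie below 0.

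No gene passed the test as lower in replicate 2. The naming rule gave 12 genes, all with a limma adjusted p of 0.0955, and 5 of them are described here. Prelid2, which had the smallest p, read 8.14, 7.50 and 8.10 in replicate 1 and 7.68, 6.86 and 7.57 in replicate 2; siRNA 1 lay lowest in both replicates, and the difference was -0.54. Rnu3a, a U3 small nucleolar RNA, read 8.58, 8.69 and 8.66 in replicate 1 and 7.92, 8.14 and 8.20 in replicate 2, without overlap and with a difference of -0.56. Snord118, the U8 small nucleolar RNA, had -0.60. Over the 52 small nucleolar RNA genes outside the imprinted region the median was 0.01, so these did not stand for their class. Dmrt1, a DM-domain factor of the germline, read 9.00, 8.97 and 9.19 in replicate 1 and 8.56, 8.57 and 8.63 in replicate 2, a difference of -0.47. Cbr3, a carbonyl reductase, had -0.44.

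Among germline and meiosis genes, 13 of 16 had a difference below 0, with a median of -0.11. Over all genes 8476 of 19938 were below 0. In this list 0 passed the test. With the trend 3 passed as lower and 1 as higher, against 4.86% and 3.68% of all genes. Sycp3, a protein of the synaptonemal complex, read 8.75, 7.83 and 8.56 in replicate 1 and 8.05, 6.99 and 8.15 in replicate 2. Every pair was lower, by -0.70, -0.85 and -0.40, with a mean of -0.65, while the siRNA 1 arrays lay lowest in both replicates (limma adjusted p = 0.0955). Mael, a protein of the piRNA pathway, had -0.40 (limma adjusted p = 0.106) and Stk31 had -0.43. The most negative difference among the genes given here was that of Zfp931, a zinc finger gene chosen after its values were seen. It read 7.22, 6.69 and 6.92 in replicate 1 and 6.35, 4.58 and 6.04 in replicate 2, so that replicate 2 of siRNA 1 set much of the difference of -1.28 (limma adjusted p = 0.108).

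Genes of energy metabolism lay slightly lower in replicate 2. All 20 measured genes of oxidative phosphorylation had a difference below 0, 15 in all 3 pairs (75%) and 12 without overlap. Over all genes 8476 of 19938 were below 0, 21.4% were lower in all 3 pairs (42.1% in the brightest of 10 bins of mean level) and 8.57% did not overlap. The list's median was -0.08, or -0.05 after quantile normalization. None passed the test, and 4 passed as lower with the trend. In the list of hypoxia and glycolysis genes, 16 of 21 were below 0 with the same median of -0.08. Egln3, a prolyl hydroxylase induced by hypoxia, read 9.98, 10.35 and 10.98 in replicate 1 and 9.71, 9.69 and 9.85 in replicate 2. The replicate 2 arrays were close together and the replicate 1 arrays were spread, and the difference was -0.68 (limma adjusted p = 0.115). Bnip3, a mitophagy receptor and hypoxia target, had -0.45 (limma adjusted p = 0.109).

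**Figure D4:**
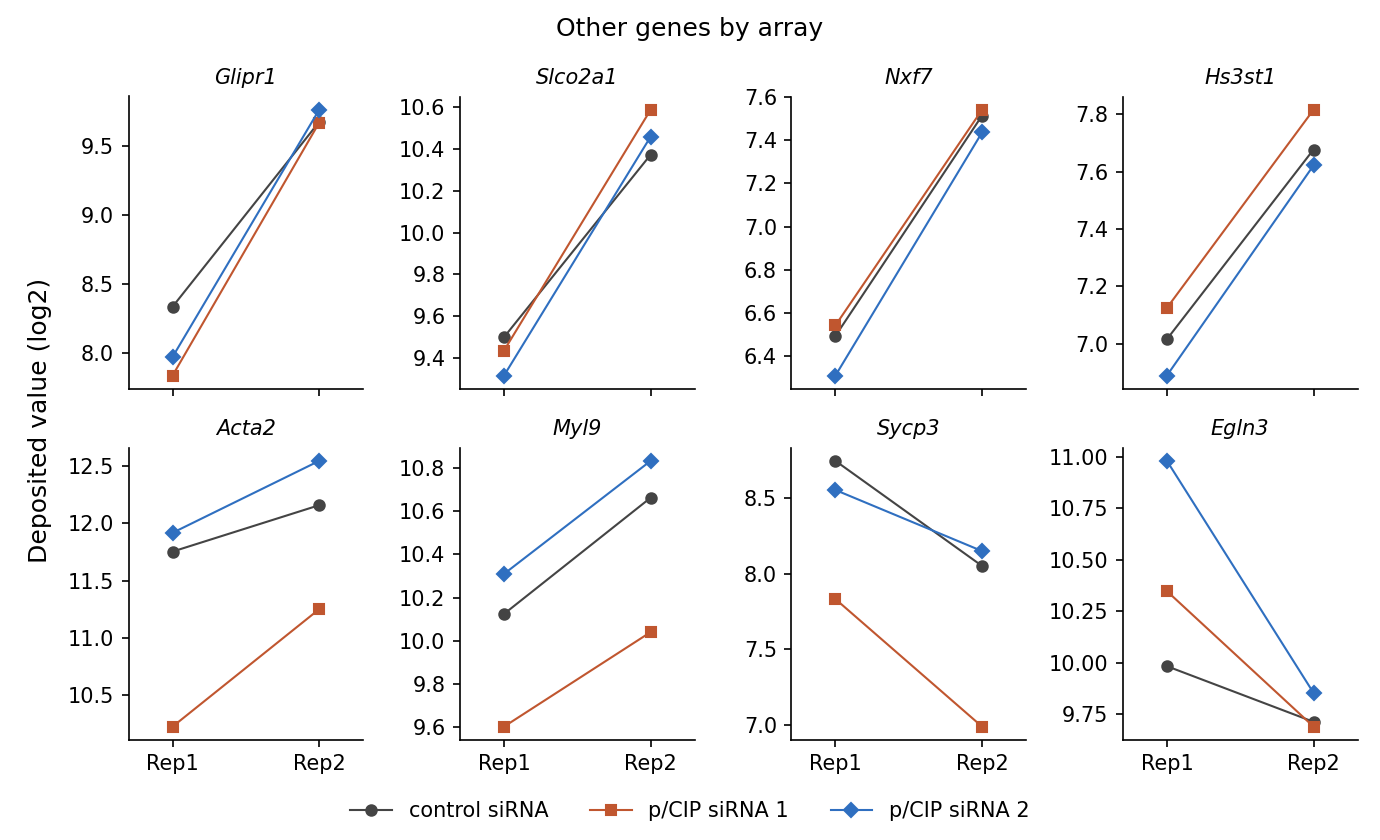
Log2 level on each array of the 4 genes beside Srgn that passed the test (Glipr1, Slco2a1, Nxf7, Hs3st1), of the contractile genes Acta2 and Myl9, and of Sycp3 and Egln3, with a line joining replicate 1 to replicate 2 within each transfection group. The lines of the first 4 genes climb together, those of Acta2 and Myl9 climb with siRNA 1 below the other groups, and those of Sycp3 and Egln3 run downwards, from between 9.98 and 10.98 to between 9.69 and 9.85 for Egln3.

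Brightness moved with the replicate number. When genes were divided by mean level into 10 bins of equal size, the median difference from the dimmest bin upwards was 0.05, 0.09, 0.11, 0.11, 0.08, 0.01, -0.03, -0.05, -0.04 and -0.03. In bin 3 the siRNA 1 pair reached 0.19. In the brightest bin 42.1% of genes were lower in all 3 pairs, against 3.61% in bin 2. The small negative medians of the pluripotency and oxidative phosphorylation lists and the small positive median of the microRNA genes lie on the side that their brightness shares, and the part of brightness in them was not tested beyond the normalizations given. Aligning array medians shifted each array by a constant, so the difference of every gene, and the median of all genes, moved downwards by the same amount. The list medians became -0.19 for pluripotency, -0.19 for germline and -0.17 for oxidative phosphorylation genes. They became 0.14 for contractile, 0.15 for basement membrane, 0.10 for fibroblast feeder and 0.04 for trophoblast and visceral endoderm genes. The 6 markers had a median level of 9.65 and a median difference of 0.68. They were chosen with earlier results of these data known, and the part of brightness in their difference was not tested.

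The replicate number accounted for 31.5% of the variance between arrays summed over all genes, with 1 degree of freedom, against 49.0% for the siRNA group with 2 and 19.6% for the rest with 2. Among genes above the median level of 7.81 the shares were 31.2%, 56.2% and 12.6%. Whether the control pair differed from the siRNA pairs in its replicate difference was fitted as an interaction. It called 0 genes by limma's adjusted p (0%), and 734 genes (3.68%) had an unadjusted p under 0.05, below the 997 that chance gives. With a single control pair the interaction fit had little power, and its lack of calls does not show that the pairs differed alike. The plot of pairs sets the siRNA pairs against the control pair, gene by gene.

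**Figure D5:**
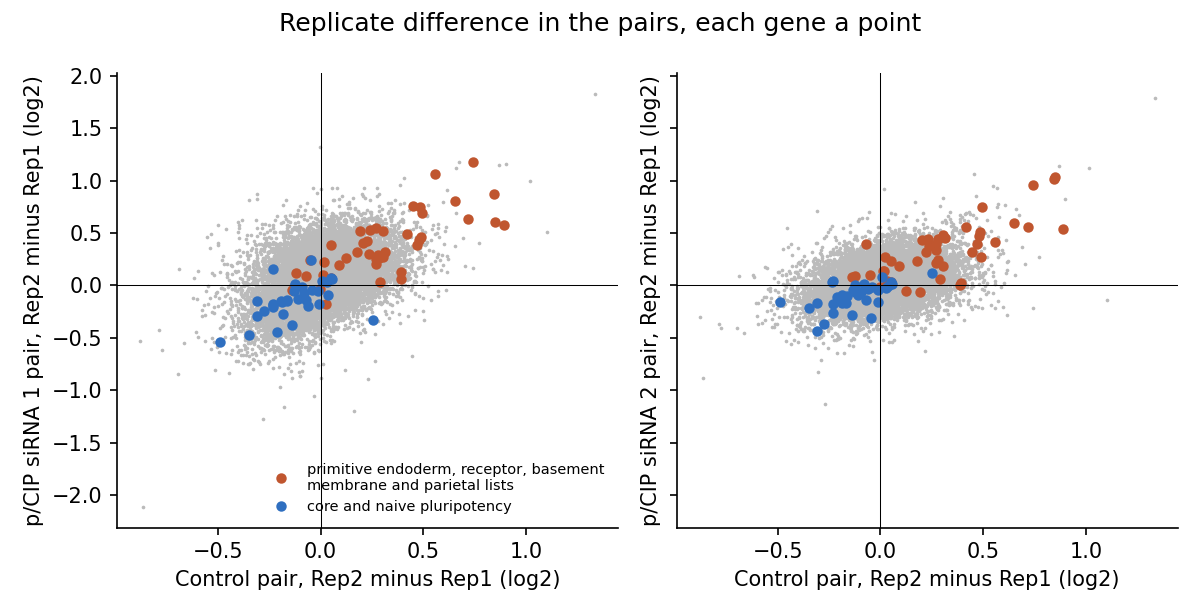
Replicate 2 minus replicate 1 difference (log2) of every gene in the siRNA 1 pair (left) and the siRNA 2 pair (right) against that in the control pair; grey points are all genes, orange points the transcription factor, endocytic, basement membrane and parietal endoderm lists, and blue points the pluripotency list. The orange points reach into the upper right corner of both panels, where the difference is above 0 in both pairs, and the blue points gather below and left of 0.

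None of the 6 markers passed between siRNAs and control. Over both siRNAs against control, a comparison that called 0.0702% of genes, and 0.341% with the replicate number as a block, the median of the 6 markers was 0.14 and 0 of them passed with or without the block. Limma's adjusted p for this comparison was 0.894 for Gata6, 0.831 for Gata4, 0.858 for Dab2, 0.964 for Lama1, 0.994 for Srgn and 0.913 for Cubn. Of the 5 genes that rose with the replicate number, 0 passed between the siRNAs and control. A p that misses the threshold does not show that the levels were the same. That median also moved when 1 array was left out, from -0.21 without replicate 1 of the control to 0.44 without replicate 2 of the control.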

How the data were processed

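RNA of 6 samples was hybridised to 1 array each. The deposited values are log2 levels per probe set; base 2 was inferred from their range, since no label or header states it. The submitters' processing notes name Partek; how background, summarization and normalization were handled is not given in the sources used here.

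Gene symbols came from GEO's platform annotation: 21789 probe sets held 1 symbol, 1621 several and 12146 were not listed. The brightest probe set stood for each of 999 genes with more than 1. Replicate 2 was compared with replicate 1 with the siRNA group as a term in limma 3.58.1 under R 4.3.3 (lmFit, eBayes), with 2 residual and 3.89 prior degrees of freedom, two-sided, Benjamini-Hochberg adjusted over 19938 genes and called under 0.05. Every adjusted p is limma's and every error is its standard error over 3 pairs. The fit was tested on simulated data. Alternatives varied normalization, filter, variance model and pairs; the closing section gives their effect.

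The comparison, the 29 gene lists and the naming rule were chosen with earlier results of these data known, and further lists after the values were seen. The rule took Ncoa3, the 6 markers, 5 pluripotency factors, up to 12 genes per direction (called first, then smallest p, above the median level in the higher replicate, with the same sign in all pairs), and up to 5 genes of smallest p per endoderm list and 3 per other list. It skipped predicted genes and olfactory receptors. Genes outside it were named as list members or after their values were seen.

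Whether equal numbers pair the arrays was checked across genes: replicate differences correlated at 0.464 between the control and siRNA 1 pairs, 0.407 for control with siRNA 2, and 0.461 for siRNA 1 with siRNA 2. Each exceeds 0.1, and the numbers were treated as pairing. Since a group holds 2 arrays, its numbering fixes no more than a sign, and no label ties equal numbers to a common culture or day.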

Additional observations from a re-analysis of the deposited data

Results flagged for a closer look

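Among the genes named in the text, the replicate difference had one sign in the control pair and the other in both siRNA pairs for 8. Ncoa3, the siRNA target, had -0.052 in the control pair, 0.22 in the siRNA 1 pair and 0.21 in the siRNA 2 pair. Apoa1, an apolipoprotein, had -0.14, 0.41 and 0.23, the endoderm factor Hnf4a -0.052, 0.25 and 0.10, nidogen (Nid1) -0.12, 0.12 and 0.095, and thrombomodulin (Thbd) -0.069, 0.092 and 0.40. The linker histone gene H1f3 had 0.031, -0.24 and -0.24, alpha-fetoprotein (Afp) 0.014, -0.071 and -0.25, and the deiodinase gene Dio3 -0.35, 0.16 and 0.14. For 3 more genes 1 of the siRNA pairs stood against the others: Rian had 0.13 in the control, -0.22 in siRNA 1 and 0.67 in siRNA 2, Fst had 0.024, -0.18 and 0.27, and Foxa2 had 0.19, 0.52 and -0.062. With 1 array per replicate and group, no pair carries an error of its own, and the interaction of limma gave an adjusted p of 1.0 for each of these genes.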

How the results depend on the processing

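Of the values of named genes recomputed under the alternatives, 1864 kept their direction and side of the threshold, 302 passed it in addition, 22 no longer passed and 13 changed sign. The count of 5 called genes became 2162 with the array code as a covariate, 28 after quantile normalization, 72 after cyclic loess, 0 over all probe sets, 881 among genes above the median level, 1702 with the variance trend and 1 without moderation, and ran from 0 to 10 with each pair left out. The cause of these differences was not tested. Without small RNA genes, an alternative chosen after seeing the data, as were the interaction and the count over all 3 pairs, the count was 5. Array medians aligned gave list medians of 0.26 (endocytic), 0.15 (basement membrane), 0.24 (parietal), 0.035 (visceral) and 0.057 (other primitive endoderm). Quantile normalization gave 0.38, 0.27 and 0.042 for endocytic, basement membrane and visceral genes, and cyclic loess 0.38, 0.28, 0.045 and, for other primitive endoderm genes, 0.15. The array code gave 0.27 for basement membrane and 0.081 for other primitive endoderm genes, and these were 0.12 among genes above the median level. With each pair left out, medians ran from 0.30 to 0.42 for endocytic, 0.20 to 0.25 for basement membrane, 0.053 to 0.17 for visceral and 0.10 to 0.13 for other primitive endoderm genes. Differences that changed sign were small: Tcstv3 -0.0058, Sall4 -0.035, Nid1 -0.057 and Fst -0.049 with medians aligned (0.08, 0.05, 0.03 and 0.04 otherwise), Pdia4 0.025 with probe sets averaged (-0.11 otherwise), and Rian -0.015, Fst -0.068 and Dio3 0.042 with the array code. With each pair left out, Rian ran from -0.048 to 0.40 (lowest without the siRNA 2 pair), Fst from -0.078 (without the siRNA 2 pair) to 0.15, Nid1 from -0.014 to 0.11 (also below 0, at -2e-04, without the siRNA 2 pair) and Dio3 from -0.10 to 0.15 (highest without the control pair). Between both siRNAs and control, the replicate number as a block raised the named genes called from 1 to 8, and leaving out 1 array gave 0 to 1. The comparison between replicates has the pairing built in, and no siRNA group term gave 4 genes.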
